A study of Ovis aries with 6 samples.

Results

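The 9 genes FOS, FOSB, JUN, JUNB, JUND, ATF3, EGR1, IER2 and BTG2 belong to the immediate early genes, and they were followed across the cells of the Hu sheep ovary. They were chosen by symbol from the 30574 genes counted in each library, and each of the 9 was listed once and passed the filter on low counts in every comparison below. The libraries came from 6 adult Hu ewes in estrus, with 1 whole ovary from each ewe cut up, digested with collagenase 1 and then trypsin, and sequenced by the 10x Genomics 3′ v3 single-cell method. HLS ewes (n = 3) had litters of at least 3 lambs and LLS ewes (n = 3) had litters of fewer than 2. The labels give no treatment and no age. Each ewe gave 1 library, so ewe, ovary, digestion and library cannot be told apart, and an undigested ovary was not analysed here.

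Immediate early genes are transcribed within minutes of a signal at the cell surface, without waiting for new protein to be made, and most of their mRNAs are short-lived. FOS and JUN family proteins pair to form AP-1, a transcription factor that carries growth, stress and hormone signals to other genes. In the follicle, gonadotropins are known to switch several of them on in granulosa cells, and enzyme digestion of a tissue is known to switch them on in many cell types.

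The 6 libraries held 52290 barcodes and 43329214 to 75549906 unique molecular identifiers (UMI, each a count of 1 captured RNA) per ewe. After filters on depth, mitochondrial share and haemoglobin, and after 2007 calls of doublets, 36457 cells were retained, 5189 to 7096 per ewe. Between 13 and 28 cell barcodes were shared by any pair of libraries. The cells were clustered without the 9 genes, 50 other immediate early genes or the heat shock genes, and the clusters were named from marker genes. This gave 14779 endothelial-like, 5853 stromal-like (of which 1904 were theca-like), 3069 immune-like, 2760 granulosa-like and 2675 perivascular-like cells. A cluster of 4353 cells led by ACTA2, TAGLN and CNN1 stayed unnamed, as did smaller ones led by UPP1 (200 cells), FST (195) and PLAC8 (154). The FST-led cells scored 2.11 for cycling and 1.65 for granulosa markers, and are in no granulosa-like sum. Markers of a type were highest in that type for 42 of 42 endothelial, 33 of 33 immune, 22 of 22 perivascular, 22 of 24 granulosa and 16 of 21 stromal genes. The same marker lists had named the clusters, so these counts describe the types and do not test their names. They also leave out the unnamed clusters. The leading genes of the largest, ACTA2, TAGLN and CNN1, are on the perivascular list. An endothelial-like cluster of 4097 cells held 2269 cells of LLS1 and 1784 of HLS2 and 44 of the other ewes, and the endothelial results are given with and without it.

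The 9 genes took 1.24% of all UMI, and the share in single ewes ran from 1.09% in LLS1 to 1.47% in LLS2. Levels are given as UMI per 10000 UMI, summed over the cells of a type within each ewe, with the mean ± SD over 6 ewes. They are compared between cell types for 1 gene at a time, since a 3′ UMI count does not set different genes on a common scale. The sum of the 9 genes is also given, and it mostly follows the genes with the most UMI. In stromal-like cells FOS made up 31.0% and JUN 25.2% of it, against 2.0% for IER2 and 1.74% for EGR1 (means over ewes). The summed level of the 9 genes was 175.2 ± 44.9 in perivascular-like, 133 ± 34.1 in stromal-like, 124 ± 18.6 in endothelial-like, 98.5 ± 22.7 in granulosa-like and 97 ± 13.9 in immune-like cells. Over these 5 types the lowest single value was 72.6, in the granulosa-like cells of HLS1, and the highest was 244, in the perivascular-like cells of HLS3. The ranges of every pair of neighbours in this order overlapped. Among smaller classes the sum was 239 ± 74.4 in epithelial-like cells (4 ewes with at least 10 cells, of which HLS3 was highest at 351), 191 ± 57.6 in Schwann-like cells (5 ewes, 96.2 to 245) and 82.4 ± 12.7 in cycling cells (6 ewes, 66.2 to 95.5). Luteal-like cells, counted in LLS3 alone, were at 29.3, and B cell-like cells, counted in LLS2 alone, at 96.1.

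FOS and FOSB encode the Fos partners of AP-1, which need a Jun protein to bind DNA. In perivascular-like cells FOS was at 26.6, 61.3 and 69.3 in the HLS ewes and at 54.0, 34.2 and 34.9 in the LLS ewes, a mean of 46.7 ± 17.2. The other types had mean FOS levels of 41.3 ± 11.3 (stromal-like), 28.8 ± 7.70 (endothelial-like), 24.5 ± 10.8 (granulosa-like) and 22.3 ± 7.03 (immune-like). Perivascular-like and immune-like cells, the ends of this order, differed 2.10-fold, and their ranges over ewes overlapped. FOSB was at 22.3 ± 8.51 in perivascular-like cells and at 7.97 ± 2.43 in granulosa-like cells, 2.80-fold apart, and these ranges (11.5 to 35.8 and 4.40 to 11.1) did not overlap. Both orders held in all 6 ewes, in that each ewe had more FOS and more FOSB in the first of the named types than in the last.

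JUN, JUNB and JUND encode the Jun partners. JUN was at 33.4 ± 7.95 in stromal-like, 31.3 ± 6.67 in perivascular-like, 28.8 ± 3.39 in endothelial-like, 23.3 ± 5.63 in granulosa-like and 19.2 ± 2.95 in immune-like cells. JUNB in perivascular-like cells was at 18.5, 24.1 and 31.5 in the HLS ewes and at 18.5, 22.3 and 18.5 in the LLS ewes, a mean of 22.2 ± 5.13. In immune-like cells it was at 6.20 ± 1.25, with the ewes between 5.07 and 8.54. That 3.59-fold distance left no overlap between ewes. JUND had another order, with immune-like cells highest at 23.7 ± 3.50 and stromal-like cells lowest at 16.3 ± 2.69, 1.45-fold apart and also without overlap. The immune-like clusters differed in JUND. With the ewes pooled it was at 39.0 in a CD52-led cluster and 25.4 in a LOC101103771-led one. It was at 16.4 in a cluster with C1QA, C1QB and C1QC among its leading genes. JUN at its ends, stromal-like and immune-like, differed 1.73-fold without overlap.

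ATF3 encodes a stress-responsive member of the ATF/CREB family that also pairs with Jun proteins. Its level was 11.3 ± 3.06 in perivascular-like and 5.22 ± 1.37 in granulosa-like cells, and HLS1 (6.06 in perivascular-like cells) fell inside the granulosa range of 4.12 to 7.84. EGR1 encodes a zinc finger factor that acts downstream of growth factor and gonadotropin signals. In perivascular-like cells it was at 0.81, 3.41 and 3.68 in the HLS ewes and at 3.15, 2.94 and 2.48 in the LLS ewes, so that HLS1 alone was low. The mean was 2.75 ± 1.03 there, 2.37 ± 1.05 in stromal-like and 1.44 ± 0.66 in granulosa-like cells, against 0.729 ± 0.328 in endothelial-like and 0.576 ± 0.234 in immune-like cells. HLS1 had the lowest EGR1 level of the 6 ewes in each of the 5 types, from 0.255 in immune-like to 0.961 in stromal-like cells. IER2, a nuclear protein gene of the same early wave, ran from 4.73 ± 1.06 in perivascular-like to 2.39 ± 0.585 in immune-like cells. BTG2, which encodes an antiproliferative protein, ran from 10.5 ± 1.82 in perivascular-like to 5.11 ± 1.20 in stromal-like cells, with no overlap between 7.29 to 12.6 and 3.28 to 6.85.

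**Figure D1:**
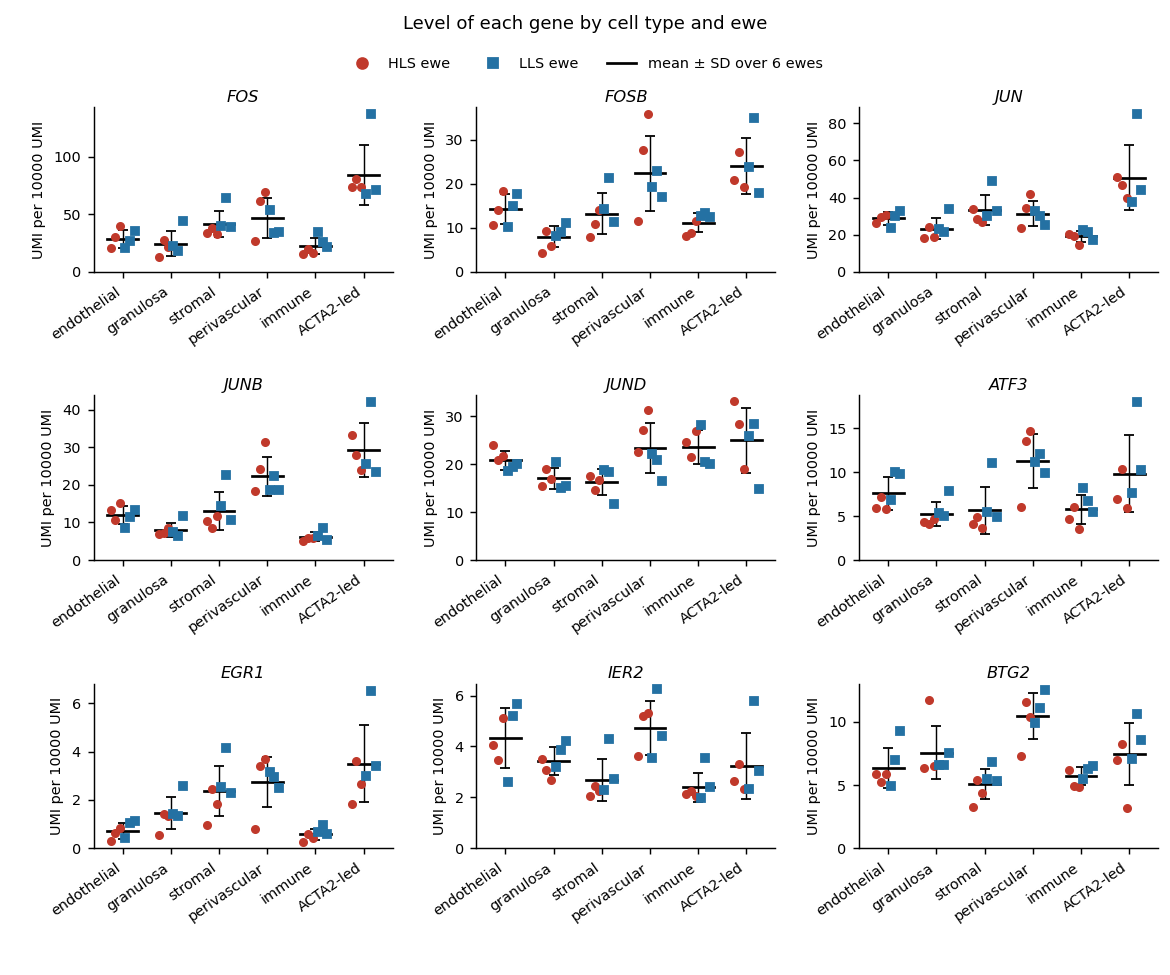
Level of each of the 9 genes (vertical axis, UMI per 10000 UMI) in 5 cell types and in the unnamed ACTA2-led cells, 1 point per ewe, with lines at the mean and bars of 1 SD. All 9 genes were detected in every type and ewe, and of the 5 types perivascular-like cells had the highest mean for FOS, FOSB, JUNB, ATF3, EGR1, IER2 and BTG2.

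The next question was whether a type differed, within ewes, from the mean of the other 4 types by more than the variation left over in the fit. That variation was pooled over all types and ewes for each gene. It is not the spread over ewes of the difference of 1 type. UMI were summed per ewe and type, and edgeR's quasi-likelihood test was fitted over 14655 genes with the ewe as a block, so differences are log2 values with SE and Benjamini-Hochberg adjusted p over all those genes. Because cell types differ in a large share of their genes, the share of all genes called stands beside each count of this main fit. Counts under the other settings are given without such a share, and so without a background. In such a fit the differences of a gene over the types cancel out. A rise in 1 type thus comes with a net fall in the others, and the counts by type are not independent results. In perivascular-like cells 7 of the 9 genes were higher and 0 lower, where 24.9% of all genes were higher and 25.2% lower. JUNB rose by 1.09 (SE 0.13, edgeR adjusted p = 1.7e-07), EGR1 by 1.18 (SE 0.15, adjusted p = 3.2e-07) and FOSB by 0.79 (SE 0.14, adjusted p = 3e-05). ATF3 (0.78), BTG2 (0.61), FOS (0.55, SE 0.18, edgeR adjusted p = 0.011) and IER2 (0.45) also rose. JUN (0.14, SE 0.12) and JUND (0.11, SE 0.09) did not pass. The FOS difference was 0.46 without HLS2 (edgeR adjusted p = 0.070) and 0.41 without HLS3 (adjusted p = 0.080), and so did not pass, while the other 6 calls held under all 19 settings tried. DESeq2 gave the same counts of higher and lower members in each of the 5 types.

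In granulosa-like cells 0 of the 9 genes were higher and 6 lower, beside 27.8% and 28.6% of all genes. FOSB fell by 1.01 (SE 0.16, edgeR adjusted p = 4.2e-06) and JUNB fell by 0.71 (SE 0.15, adjusted p = 0.00028). FOS (−0.61), ATF3 (−0.58), JUND (−0.41) and JUN (−0.37, SE 0.13, edgeR adjusted p = 0.014) were lower as well. EGR1 (0.03, SE 0.16), IER2 (−0.08, SE 0.11) and BTG2 (0.07, SE 0.13) did not pass, and JUN did not pass without LLS2 (−0.31, edgeR adjusted p = 0.063). The count of lower genes fell to 1 where cells of up to 20% mitochondrial UMI were admitted and also where the 9 genes were kept among the clustering genes. In those settings 2142 and 1903 cells were named granulosa-like, in place of 2760. Without 482 cells whose sub-clusters were named for other cells or stayed unnamed, also added after seeing the data, 6 genes were lower and 0 higher, as before.

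Stromal-like cells were split: 3 of the 9 genes were higher and 4 lower, beside 30.2% and 28.8% of all genes. EGR1 rose by 1.07 (SE 0.15, edgeR adjusted p = 9.2e-07), FOS by 0.55 (SE 0.18, adjusted p = 0.0094) and JUN by 0.41 (SE 0.12, adjusted p = 0.0050). BTG2 (−0.52), IER2 (−0.44), ATF3 (−0.37, SE 0.16, edgeR adjusted p = 0.044) and JUND (−0.36) were lower. Without the theca-like cells, an alternative added after seeing the data, 5 genes were higher, with FOSB (0.39) and JUNB (0.58) added, and 0 lower. The ATF3 call did not hold without HLS1, HLS2, HLS3, LLS1 or LLS3. LLS2 stood above the other ewes here, with FOS at 63.8 against 33.0 to 40.2 and JUN at 48.7 against 26.7 to 33.7. Without LLS2 the FOS difference was 0.38 (edgeR adjusted p = 0.088) and the JUN difference 0.30 (adjusted p = 0.060), which left EGR1 as the 1 gene called higher.

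Immune-like cells had 1 of the 9 genes higher and 4 lower, beside 32.6% and 33.9% of all genes. JUND rose by 0.54 (SE 0.09, edgeR adjusted p = 8.9e-06), while EGR1 fell by 1.25 (SE 0.18, adjusted p = 1.3e-06) and JUNB fell by 0.83 (SE 0.15, adjusted p = 3.2e-05). IER2 (−0.40) and JUN (−0.35, SE 0.13, edgeR adjusted p = 0.016) were lower, the latter not without HLS2 or without HLS3. In endothelial-like cells, 1 gene was higher (IER2, 0.47, SE 0.10, adjusted p = 0.00020) and 1 lower (EGR1, −1.03, SE 0.17, adjusted p = 8.2e-06), beside 32% of all genes in each direction. Without the cluster that LLS1 and HLS2 made up, 5 genes were higher, now also ATF3 (0.35), FOSB (0.33), JUNB (0.31) and JUND (0.21). As a mean over 5 ewes that cluster had a summed level of 69.9, while the other endothelial-like clusters lay between 81.6 and 155.2. HLS1, LLS2 and LLS3 gave only 14, 11 and 15 cells to that mean. In LLS1 and HLS2 alone, the mean was 102.8 in the shallower and 98.1 in the deeper cells of the cluster, inside the range of the others.

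**Figure D2:**
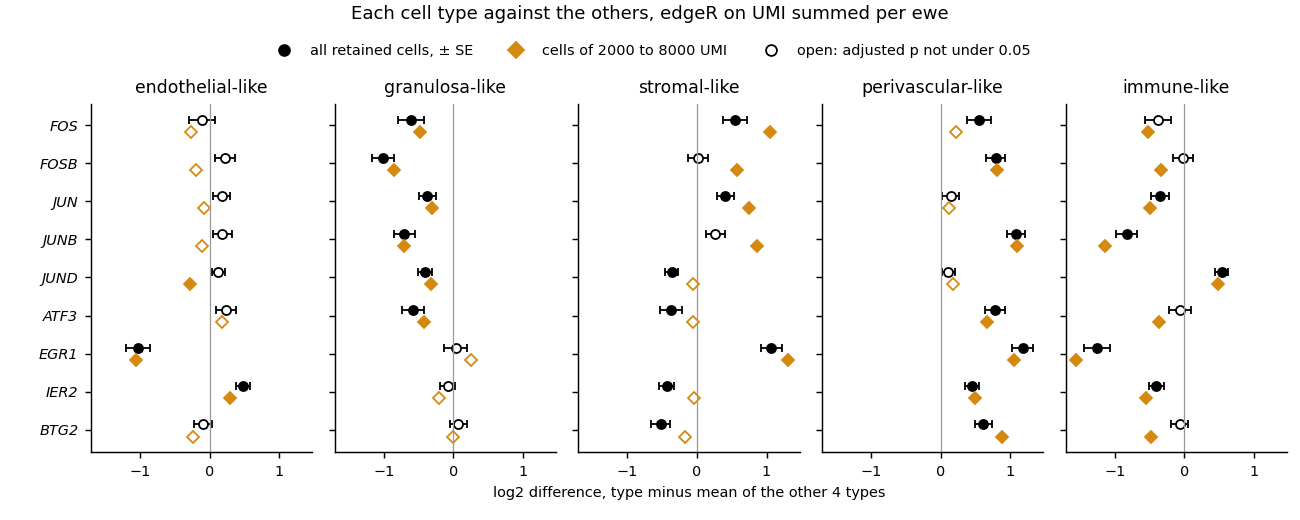
Difference of each cell type from the mean of the other 4 (horizontal axis, log2) for each of the 9 genes; circles are all retained cells with bars of 1 SE, diamonds are cells of 2000 to 8000 UMI, and filled symbols passed an adjusted p of 0.05 in edgeR. Among the circles, perivascular-like cells have all 9 to the right of 0 and granulosa-like cells have 7 to the left of it, while EGR1 reaches from −1.25 in immune-like to 1.18 in perivascular-like cells.

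The 9 genes shared part of their variation between ewes. Of the sum of squares of log2 CPM over 30 sums of ewe and type, the cell type took 48.9% for FOS to 79.9% for JUNB, and the ewe took 4.15% for JUNB to 27.6% for EGR1. For the mean of the 9 genes the type took 59.9% and the ewe 17.4%, and the medians over 14118 genes were 65.1% and 12.6%. After each type was centred on its own mean, 33 of the 36 pairs of members were positively correlated over these 30 sums, with a median r of 0.61. The 3 negative pairs were JUND with EGR1, IER2 and BTG2. Of all pairs among the 14109 other genes ranked below, 58.9% were positive, with a median r of 0.068. The sums of an ewe share a library and its depth, so this is a description of these libraries. HLS1 was below the type mean in all 5 types, by 0.39 on average on the log2 scale, and LLS2 was above it in 4. The ewe with the highest mean was not the same in every type: LLS3 in endothelial-like and granulosa-like cells, HLS3 in perivascular-like cells and LLS2 in stromal-like and immune-like cells.

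Among 14109 genes ranked by their type-centred correlation with the mean of the 9 over the same 30 sums, the first 10 were LOC654403 (r = 0.83), RSF1 (0.83), SYNE2 (0.81), PCF11 (0.80), KIAA2026 (0.79), MRE11 (0.79), FAM71A (0.79), KITLG (0.78), SMARCC2 (0.78) and LSMEM1 (0.78). The first 50 held 1 of the 49 other immediate early genes ranked and 0 of the heat shock genes. SYNE2 is also on the marker list used to name early granulosa-like cells below.

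The depth of the single cell moved with these levels. The median UMI per cell was 3333 in perivascular-like, 2914 in immune-like and 3622 in the unnamed ACTA2-led cells, against 8484 in endothelial-like, 8340 in stromal-like and 7864 in granulosa-like cells. Within each ewe and type the cells were divided at their median UMI. The shallower cells had the higher summed level in all 6 ewes in each of the 5 types, with 211 against 107 UMI per 10000 in stromal-like, 256 against 150.4 in perivascular-like, 130.2 against 88.8 in granulosa-like, 127 against 88.4 in immune-like and 141 against 118 in endothelial-like cells. All 9 genes were lower in the deeper stromal-like cells in every ewe, where 22.2% of all genes were. In perivascular-like cells 8 of the 9 behaved this way (14.2% of all genes), in granulosa-like cells 6 (10.3%), and in endothelial-like and immune-like cells 5 each (8.9% and 18.8%). The 2 sides of this division also differed in clusters. SERPINF1-led cells were 42.1% of the shallower and 11.5% of the deeper stromal-like cells, and theca-like cells 17.3% and 47.7%. RGS5-led cells were 39.7% of the shallower and 76.8% of the deeper perivascular-like cells, and the CD52-led cluster was 76.6% and 33.4% of the immune-like cells. When each cluster was divided on its own, in ewes with at least 20 of its cells, the shallower cells had the higher mean in all 16 clusters of the 5 types and the higher value in every such ewe in 11 of them. In SERPINF1-led cells these means were 328 against 242 UMI per 10000, and in RGS5-led cells 184 against 124.

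**Figure D3:**
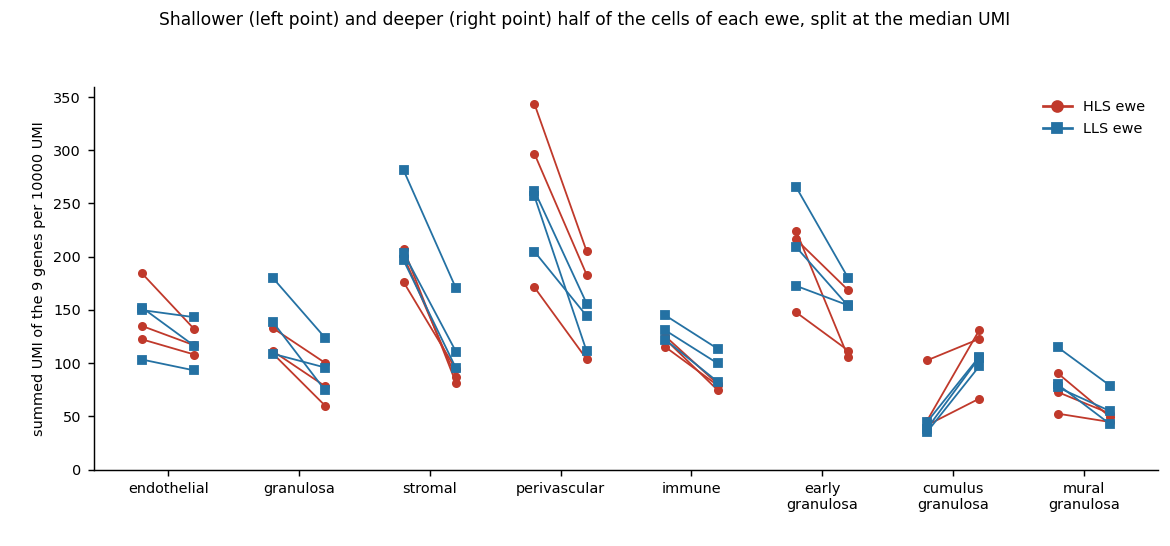
Summed level of the 9 genes (vertical axis, UMI per 10000 UMI) in the shallower and the deeper cells of each type, divided at the median UMI within each ewe; lines join the values of 1 ewe. Lines fall in every ewe in the 5 main types, and rise in every ewe in cumulus granulosa-like cells.

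In cells of 2000 to 8000 UMI, a window chosen after seeing these values, the summed level was 221 in stromal-like, 209 in perivascular-like, 142 in endothelial-like, 137 in granulosa-like and 110 in immune-like cells. Perivascular-like cells kept 6 of their 7 higher genes, with FOS at 0.21 (edgeR adjusted p = 0.29). Granulosa-like cells again had 6 lower and 0 higher. Stromal-like cells then had 5 higher, with FOS at 1.05, JUN at 0.75, JUNB at 0.86, FOSB at 0.58 and EGR1 at 1.30 on the log2 scale, and 0 lower. In immune-like cells 8 were lower and JUND stayed higher. These counts stand without the share of all genes called in the window, so they cannot be set against a background. The window set common limits and not a common depth, since the median UMI of the cells within it was 3268.5 for the immune-like and 3411 for the perivascular-like type, against 4662 (granulosa-like), 5056 (endothelial-like) and 5196 (stromal-like). It also changed the make-up of the types: theca-like cells went from 32.5% of all stromal-like cells to 11.8% of those in the window, and SERPINF1-led cells from 26.8% to 48.4%. Depth and cluster cannot be told apart in these changes.

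The shared presence of the 9 genes was also read cell by cell, after each cell was thinned to 1000 UMI. At least 1 of the 9 was found in 95.2% (granulosa-like) to 99.8% (perivascular-like) of cells. At least 5 of the 9 were found in 80.1% ± 8.7 of perivascular-like, 62.4% ± 8.2 of endothelial-like, 55.9% ± 10.3 of stromal-like, 41.8% ± 7.5 of granulosa-like and 41.5% ± 7.0 of immune-like cells (mean ± SD, n = 6 ewes). Without thinning these shares were 98%, 97.8%, 94.9%, 82.7% and 84.1%. No cell type known to lack these RNAs was found to set a background, so free RNA in the droplets was not measured apart from RNA of the cells.

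Barcodes set aside by the filters carried the 9 genes too. Per 10000 UMI of non-mitochondrial genes, the summed level was 144 ± 13.2 in 7385 barcodes under 1000 UMI. In barcodes of at least 1000 UMI it was 131 ± 13 under 5% mitochondrial UMI, 138.0 ± 15.4 from 5 to 10%, 138 ± 21.8 from 10 to 20% and 108.5 ± 23.5 over 20%, where 2153 barcodes lay between 77.7 and 137 by ewe. The ranges over ewes of all 5 classes overlapped, but within each of the 6 ewes the barcodes over 20% were below those under 5%, below those from 10 to 20% and below those under 1000 UMI. Within types, the cells above the median mitochondrial share had the higher level in all 6 ewes in immune-like cells (108 against 89.3) and in 5 in granulosa-like cells (110.3 against 86.6), and in 1 each in stromal-like and perivascular-like cells. This division was not repeated within clusters, so mitochondrial share and cluster cannot be told apart in it.

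Clusters inside a type differed as well. Stromal-like cells held a SERPINF1-led cluster at 268 UMI per 10000, a PTCH1-led cluster at 129.8 and theca-like cells at 91.1 ± 22.7. Of the perivascular-like clusters the RGS5-led one was at 137 and another, with MYH11 among its leading genes, at 255. Granulosa-like cells held an IL17RB-led cluster at 132.3 and a GCG-led cluster at 57.5. Immune-like cells held a CD52-led cluster at 116.3, a LOC101103771-led one at 117.3 and one with C1QA among its leading genes at 85.6. With the ewes pooled, ATF3 was at 3.18 in the CD52-led and 7.14 in the C1QA cluster, and BTG2 at 3.27 and 6.71, the reverse of JUND. The unnamed ACTA2-led cells were at 237 ± 66.8, with 368 in LLS2 and 190 to 236 in the other ewes. Their mean lay above the 175.2 of perivascular-like cells. Their highest marker score was stromal (1.41) and the next perivascular (0.63), although ACTA2, TAGLN and CNN1 are on the perivascular list. Joining them to stromal-like cells, an alternative added after seeing the data, brought the stromal count to 5 higher and 2 lower. This count stands without the share of all genes called. Joining them to perivascular-like cells was not run.

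Granulosa-like cells were divided into early (959 cells), cumulus (532) and mural (787) granulosa-like cells, again clustered without the 9 genes. The other 482 cells fell in sub-clusters with more stromal (192 cells) or endothelial (155) markers or in one that stayed unnamed (135), and they are part of the granulosa-like sums above but of no subtype. The study's own list of early granulosa marker genes, made on these samples, contains FOS, FOSB, JUN, JUNB, JUND, ATF3 and BTG2. The direction of these genes in early granulosa-like cells is therefore not independent evidence. The early sub-clusters were also named from marker genes. Whether those markers move with the 9 genes within granulosa-like cells was not tested. The direction of EGR1 and IER2 is thus not shown to be independent either. The summed level was 164 ± 30.2 in early, 95.3 ± 20.9 in cumulus and 62.6 ± 14.7 in mural granulosa-like cells. The early range of 123 to 206 did not overlap either of the others, which ran from 61.9 to 118 and from 47.5 to 90.5.

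Against the mean of the other 2 subtypes, early granulosa-like cells had all 9 genes higher and 0 lower in edgeR, beside 17.9% and 15.2% of 8565 genes. EGR1 in early cells was at 1.89, 2.00 and 2.07 in the HLS ewes and at 2.40, 3.13 and 4.25 in the LLS ewes, all above the highest cumulus value of 1.56 and the highest mural value of 1.5. EGR1 rose by 1.51 (SE 0.14, edgeR adjusted p = 7.5e-08), ATF3 by 1.51 (SE 0.14, adjusted p = 4.7e-08) and FOSB by 1.41 (SE 0.14, adjusted p = 9.8e-08). FOS was at 39.3, 27.8 and 33.8 UMI per 10000 in the HLS ewes and at 29.8, 35.1 and 69.6 in the LLS ewes, a log2 difference of 1.14 (SE 0.14, edgeR adjusted p = 2.2e-06). These FOS levels overlapped those of cumulus granulosa-like cells (22.0 to 40.6) and not those of mural ones (5.0 to 20.3). JUNB (1.07), JUN (1.03), JUND (0.92), BTG2 (0.82) and IER2 (0.63, SE 0.14, edgeR adjusted p = 0.0015) also rose. All 9 calls held in each of the 10 settings run. These settings kept the same sub-clusters and names. No other clustering was run for the subtypes, so the settings do not test the naming.

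In cumulus granulosa-like cells 1 gene was higher and 4 lower in edgeR (2 lower without LLS3, where FOSB and JUND did not pass), beside 21.6% and 21.7% of all genes. FOS rose by 0.86 (SE 0.14, edgeR adjusted p = 4e-05), while ATF3 fell by 1.26 (SE 0.15, adjusted p = 6.8e-07), and IER2 (−0.65), FOSB (−0.49) and JUND (−0.33) were lower. The mean FOS level of cumulus cells, 30.9, lay below that of early cells (39.3) and above that of mural cells (9.69). In mural granulosa-like cells 0 were higher and 6 lower, beside 20.9% and 21.1%. FOS fell by 1.99 (SE 0.16, edgeR adjusted p = 5e-10), the largest difference of any of the 9 genes in any of these contrasts, from levels of 7.24, 9.31 and 5.0 in HLS ewes and 9.81, 6.44 and 20.3 in LLS ewes. EGR1 (−1.37), JUN (−1.21), JUNB (−1.06), FOSB (−0.92) and JUND (−0.59) were lower, and ATF3, IER2 and BTG2 did not pass. The differences of a gene over the subtypes cancel out, so these falls are not independent of the rises in early cells.

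The counts in cumulus and mural cells were not the same in cells of 2000 to 8000 UMI, and the count in early cells was. Median UMI per cell was 5062.5 in cumulus, 6269 in early and 11670 in mural granulosa-like cells. In the window, where these medians were 3533, 4707 and 5706, early granulosa-like cells again had 9 higher, while cumulus cells had 8 lower and FOS at −0.28, and mural cells had 1 lower (FOS, −0.81) and 1 higher (IER2, 0.59). In that window LLS1 had fewer than 10 cumulus cells and was not used for them. The share of all genes called in the window is not given beside these counts. Unlike the 5 types and the early and mural cells, the deeper cumulus granulosa-like cells had the higher summed level in all 6 ewes, with a median difference over the 9 genes of 1.0 on the log2 scale. Cumulus cells were made of a PPP1R1A-led sub-cluster (282 cells, median 2510 UMI) and an HSD17B1-led one (250 cells, median 12033 UMI), and the former was 80.1% of the shallower and 25.7% of the deeper cells. Divided on its own, the PPP1R1A-led sub-cluster had 52.4 in shallower and 36.5 in deeper cells (higher in the shallower cells in 4 of 5 ewes) and the HSD17B1-led one 109.7 and 105.3 (in 2 of 3 ewes).

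Markers of other cells moved with the subtypes. Granulosa markers summed to 12.7 UMI per 10000 (9.12 to 18.8 over ewes) in early, 38.8 in cumulus and 30.1 in mural granulosa-like cells. Of 41 endothelial markers, 30 were highest in early granulosa-like cells, where they summed to 5.93 (4.12 to 7.25), against 4.43 and 2.80. Stromal markers summed to 9.43 in early, 5.55 in cumulus and 18.3 in mural cells, and perivascular markers to 3.55, 3.96 and 4.93. Theca markers summed to 0.93 in early cells, 0.20 in cumulus and 0.28 in mural cells, with 1 of 8 at 0 in each, and immune markers to 0.68, 0.76 and 0.42. The part of these RNAs in the higher early levels was not tested. Of 206 cells in a mural sub-cluster 202 came from LLS2, and of 205 in another 175 came from HLS1. Of 502 cells in an early sub-cluster 308 came from HLS3 and 0 from HLS1, and of 131 in another 78 came from LLS2. HLS1 gave 27 early cells in all. On a score of marker levels relative to the other sub-clusters, the PTPRD-led early one had 0.90 for immune and 0.79 for early granulosa markers. The LOC101117443-led early one had 1.13 and 0.88.

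**Figure D4:**
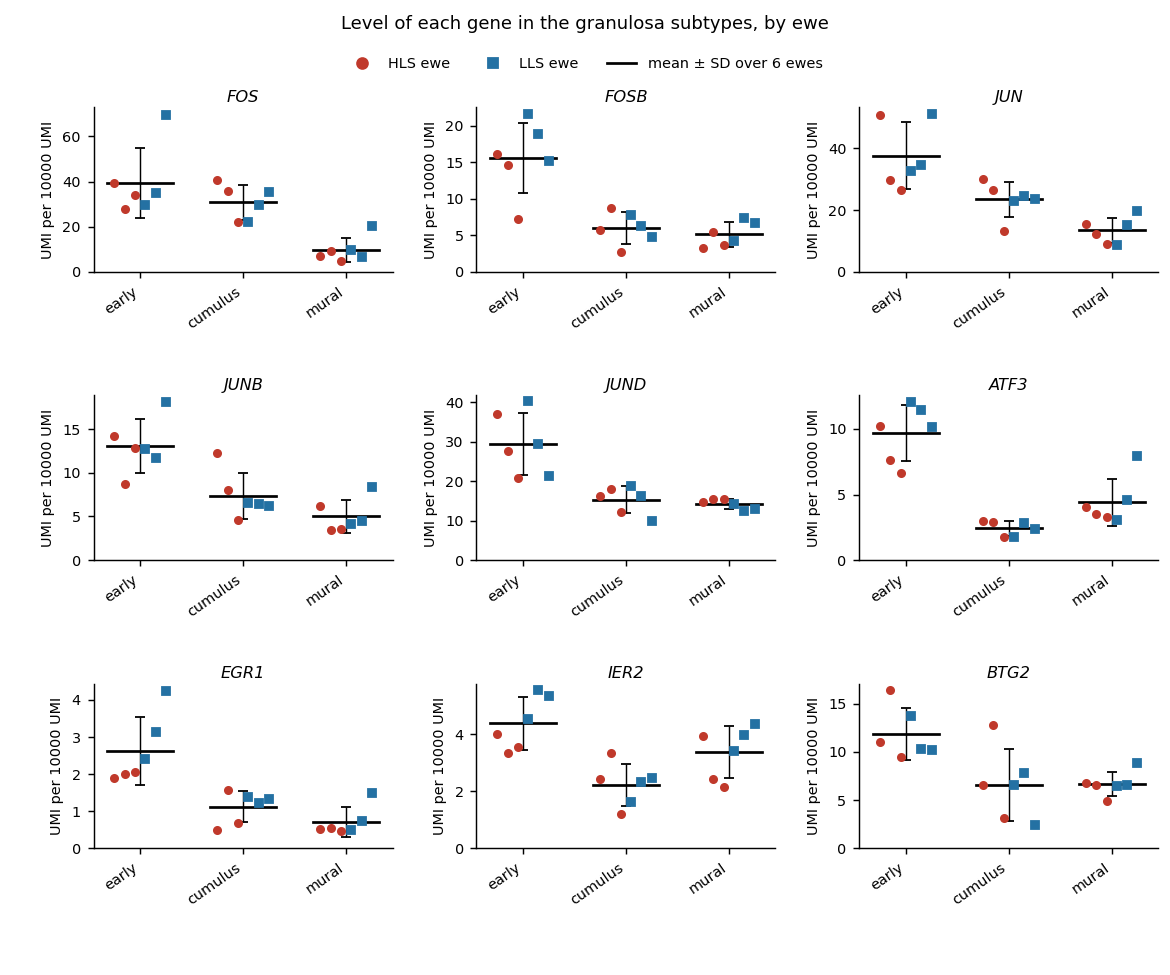
Level of each of the 9 genes (vertical axis, UMI per 10000 UMI) in early, cumulus and mural granulosa-like cells, 1 point per ewe, with lines at the mean and bars of 1 SD. The 6 early points lie above the 6 mural points for FOS, where cumulus cells (22.0 to 40.6) also lie above the mural ones (5.0 to 20.3).

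The study set HLS beside LLS ewes with a test on single cells, at a p-value and fold change cutoff. In early granulosa cells it described the group difference as down-regulated FOS, FOSB and JUN. Here the groups were compared for the 9 genes on UMI summed per ewe and on other clusters, so the results are not like for like. In edgeR 0 of the 9 genes were called in any of the 5 types, in the 3 granulosa subtypes or over all cells, and 0% of all genes were called in each of these 9 comparisons (5702 to 17947 genes tested). At an unadjusted p under 0.05 edgeR gave 482 genes for immune-like cells, or 4.55% of those tested. It gave 362 (3.27%) for perivascular-like, 673 (4.78%) for stromal-like, 615 (5.28%) for granulosa-like and 198 (1.31%) for endothelial-like cells. DESeq2 called 22, 2, 2, 3 and 4 genes in the same types and 0 to 104 in the other 4 comparisons, and none of the 9 in any of the 9 comparisons. Each group has 3 ewes, and the SEs of the 9 genes ran as high as 0.45 on the log2 scale.

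EGR1 in immune-like cells came nearest, at 0.255, 0.609 and 0.414 UMI per 10000 in HLS ewes and 0.655, 0.946 and 0.579 in LLS ewes. The log2 difference HLS minus LLS was −0.72 (SE 0.26, unadjusted p = 0.020, edgeR adjusted p = 0.98), and the groups overlapped, since HLS2 lay above LLS3. JUND in perivascular-like cells was at 22.5, 27.1 and 31.3 in HLS and 22.2, 20.9 and 16.5 in LLS ewes, a difference of 0.50 (SE 0.22, unadjusted p = 0.048, edgeR adjusted p = 0.99). Here each HLS value lay above each LLS value, though HLS1 and LLS1 were close.

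In early granulosa-like cells FOS differed by −0.27 (SE 0.33), FOSB by −0.38 (SE 0.31), JUN by −0.00084 (SE 0.30) and EGR1 by −0.56 (SE 0.28), with edgeR adjusted p = 1.0 for each. FOS in LLS3, at 69.6, lay far above the other 5 ewes, and leaving out 1 ewe at a time moved the FOS difference between −0.50 and 0.24. JUN levels were 50.9, 29.8 and 26.5 in HLS and 32.8, 34.6 and 51.2 in LLS ewes, with the lowest and highest ewe of the groups side by side. The median difference over the 9 genes was −0.27 in early granulosa-like, −0.30 in stromal-like, −0.21 in immune-like, −0.17 in granulosa-like, 0.08 in endothelial-like and 0.25 in perivascular-like cells, beside medians over all genes between −0.010 and 0.0068 in these types.

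**Figure D5:**
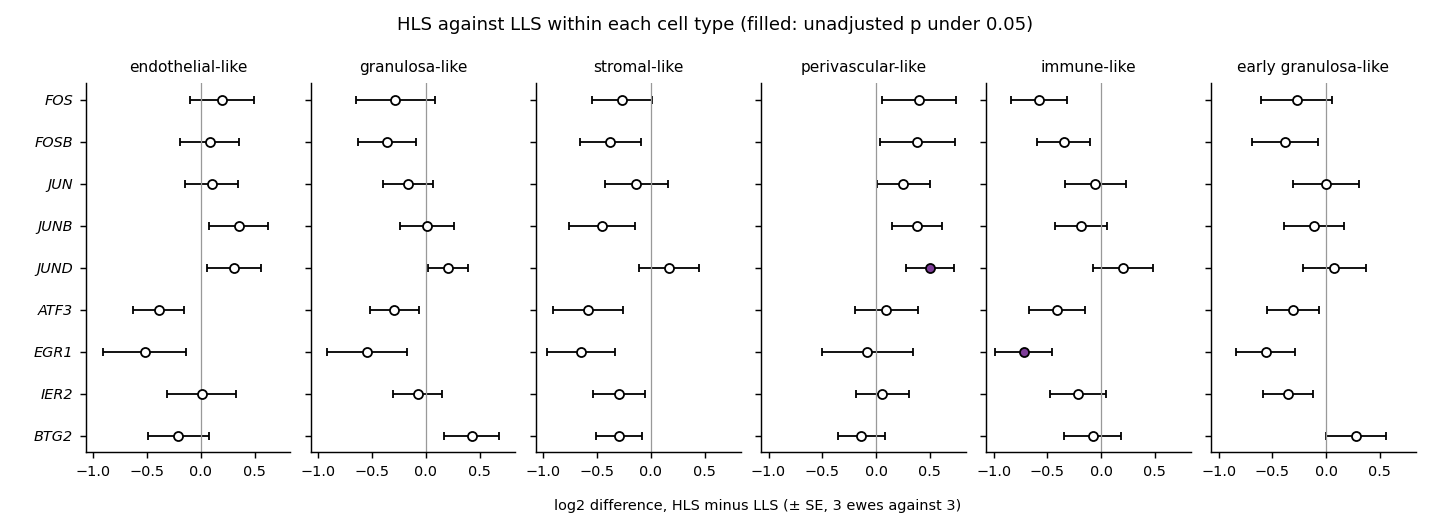
Difference between HLS and LLS ewes (horizontal axis, log2 of HLS over LLS) for each of the 9 genes in the 5 types and in early granulosa-like cells; bars are 1 SE and filled points have an unadjusted p under 0.05. None passed an adjusted p of 0.05 in edgeR, and points fall on both sides of 0.

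The other immediate early genes, a list of 50, were placed differently among the types. In endothelial-like cells 35 were higher and 6 lower (32% of all genes each way), led by PLK2 (2.63, SE 0.12), a kinase, and DUSP5 (2.19, SE 0.16), an ERK phosphatase, with NR4A3 (−2.07) and ARC (−1.63) lowest. In stromal-like cells 5 were higher and 29 lower (30.2% and 28.8% of all genes), with CCN1 (1.85, SE 0.14), a matrix protein, and EGR2 (0.85) rising, and SGK1 (−2.08) and NFKBIA (−1.70) falling. In perivascular-like cells 18 were higher and 17 lower (24.9% and 25.2% of all genes), with SOCS3 (1.79) and CCN1 (1.33) against SGK1 (−2.36) and DUSP2 (−1.87). So the perivascular rise of 7 of the 9 genes stood beside a list of 50 that went both ways. Granulosa-like cells had 12 higher and 24 lower (27.8% and 28.6% of all genes), with CCN2 (2.17) and ARC (1.67) against KLF2 (−3.66) and DUSP6 (−2.34). Immune-like cells had 25 higher and 13 lower (32.6% and 33.9% of all genes), with DUSP2 (4.15), a phosphatase of activated lymphocytes, and SGK1 (3.03) against CCN2 (−3.56) and CCN1 (−3.26). In early granulosa-like cells 31 of 49 tested were higher and 1 lower (17.9% and 15.2% of all genes), in cumulus cells 1 was higher and 30 lower (21.6% and 21.7%), and in mural cells 15 were higher and 12 lower (20.9% and 21.1%).

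Heat shock genes, which encode chaperones induced by protein damage, are given against the same shares of all genes. Of 15 tested, 12 were higher and 1 lower in immune-like cells (32.6% and 33.9% of all genes), led by HSPA6 (2.98, SE 0.21) and HSPA1A (2.40, SE 0.15), with DNAJB4 lower (−1.30). Perivascular-like cells had 1 higher (DNAJB4, 0.60) and 11 lower (24.9% and 25.2% of all genes), the lowest being HSP90AB1 (−0.87) and HSPA5 (−0.70). Granulosa-like cells had 1 higher (HSPA5, 1.09, an endoplasmic reticulum chaperone) and 13 lower (27.8% and 28.6% of all genes), with HSPA6 at −3.19 and HSPA1A at −2.80. Endothelial-like cells had 7 higher and 2 lower (32% of all genes each way), with DNAJB4 at 1.23 against HSPA5 at −1.11 and HSPD1 at −0.41. Stromal-like cells had 4 higher and 2 lower, where 30.2% and 28.8% of all genes leave the 4 near the background, with DNAJB4 at 0.87 and HSPD1 at 0.55 against HSPB1 at −0.53.

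The third list held 30 genes of the kinases, upstream factors and AP-1 partners that act on or with the 9. In endothelial-like cells 14 were higher and 5 lower (32% of all genes each way), with ELK3 (3.29), a ternary complex factor, and MRTFB (2.72), a cofactor of SRF, against RPS6KA5 (−1.40) and MAF (−1.07). Immune-like cells had 15 higher and 8 lower (32.6% and 33.9% of all genes), with the AP-1 partners BATF3 (6.71, SE 0.28) and BATF (4.58, SE 0.38) against MRTFB (−1.45) and SPRY4 (−1.25). Perivascular-like cells had 7 in each direction, near the 24.9% and 25.2% of all genes, with BATF (4.35, SE 0.40) and SPRY4 (2.19) against RPS6KA1 (−1.44) and MAPK14 (−1.21). Granulosa-like cells had 7 higher and 20 lower (27.8% and 28.6% of all genes). ELK1 (0.91) and CREM (0.72) rose most, and BATF (−4.14, SE 0.81) and BATF3 (−3.56, SE 0.75) fell most. Stromal-like cells had 2 higher, MAPK14 (0.35) and ELK1 (0.30), and 17 lower (30.2% and 28.8% of all genes). BATF (−4.33, SE 0.81) and BATF3 (−3.32, SE 0.71) were lowest. In fits of single types, BATF and BATF3 did not pass the filter on low counts in granulosa-like and stromal-like cells. The same held for RPS6KA1 in granulosa-like and perivascular-like cells and SPRY4 in granulosa-like and immune-like cells. These falls thus rest on low counts in the type itself. The rises of BATF, BATF3 and SPRY4 in other types were taken against means that include these low counts, so their size rests on them too. No gene of the 3 lists was called between HLS and LLS ewes in edgeR in any type.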

How the data were processed

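Whole-number UMI counts per gene and barcode were deposited by the authors, who made them with Cell Ranger 5.0.0, as recorded with the counts. The genome build is not given in the sources used here. The 6 libraries, 1 per ewe, were grouped by the labels. Barcodes with at least 1000 UMI, 200 genes, at most 10% mitochondrial and 5% haemoglobin UMI were kept, and simulated doublets were used to remove likely doublets. Cells were clustered (2000 variable genes, 30 components, Leiden resolution 0.8), and clusters were named from marker lists ("-like"). UMI were summed per ewe and type (at least 10 cells) and tested with edgeR 4.0.16 (R 4.3.3, TMM, quasi-likelihood), with Benjamini-Hochberg adjustment over all genes tested at 0.05; the ewe is the replicate and was a block where types were compared. DESeq2 1.42.0 was an alternative. Scripts were tested on simulated data. Counting error is smallest in endothelial-like cells (14779) and largest in cumulus granulosa-like cells (532).

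All 9 genes are named; from each list, up to 2 genes with the largest rise and 2 with the largest fall per type are named, except 1 gene that is not reported here. The members and lists were chosen with earlier results of these data known. Gene and protein sequences were not used here.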

Additional observations from a re-analysis of the deposited data

Results flagged for a closer look

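The following values stood apart from the other ewes, in that the gap between 1 ewe and its nearest neighbour took more of the range of the 6 ewes than Dixon's 95% critical value. The 6 ewes mix both litter size groups. For independent sets, chance gives about 1 such value in 20, and 19 of 100 sets of 6 ewes had one. The sets are not independent, since they share the 6 ewes, overlap in cells and hold correlated genes. The 19 of 100 therefore cannot be set against that rate. All are UMI per 10000 UMI.

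LLS2 was the high ewe in stromal-like cells, with FOS at 63.8, JUN at 48.7, ATF3 at 11.1, IER2 at 4.28 and the sum of the 9 genes at 201.1. It was also the high ewe in the unnamed ACTA2-led cells, with FOS at 137, JUN at 85.0, ATF3 at 18, IER2 at 5.78 and the sum at 368, and in immune-like cells for IER2, at 3.54. LLS3 was the high ewe in granulosa-like cells for JUN (33.9) and ATF3 (7.84), in early granulosa-like cells for FOS (69.6), and in mural granulosa-like cells for FOS (20.3), ATF3 (7.93), EGR1 (1.5) and the sum (90.5). HLS2 was the high ewe for BTG2 in granulosa-like cells, at 11.7. In stromal-like cells of 2000 to 8000 UMI the sum in LLS2 was 258, against 191 to 253 in the other ewes, so it stood less far apart there.

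The 9 genes were also counted in cells and barcodes that no comparison of types used. The sum was 237.1 in the unnamed ACTA2-led cells, 143.7 per 10000 non-mitochondrial UMI in barcodes under 1000 UMI and 108.5 in barcodes over 20% mitochondrial UMI. No cause of these values was tested.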

How the results depend on the processing

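Between HLS and LLS ewes none of the 9 genes was called under any setting. The number of all genes called was 0 in edgeR. DESeq2 called 104 over all cells, 22 genes for immune-like, 2 for perivascular-like, 2 for stromal-like, 3 for granulosa-like, 4 for endothelial-like, 1 for early and 2 for cumulus granulosa-like cells. Without the filter on low counts edgeR called 7 in perivascular-like, 161 in immune-like, 93 in early, 31 in cumulus and 104 in mural granulosa-like cells. With the replicate number as a block it called 3 in immune-like and 1 in early granulosa-like cells. Correlations of same-numbered ewes ran from −0.34 to 0.30. As deviations from means of 3 ewes they cannot tell whether the numbers pair the ewes. Leaving out 1 ewe gave 0 to 2 calls in endothelial-like, immune-like and early granulosa-like cells and 0 to 1 in stromal-like, perivascular-like, cumulus and mural cells.

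Of the 9 genes, the number called in a type was within 1.5 times under the other settings except these. Endothelial-like cells had 5 higher without the cluster of 2 ewes and 2 lower in cells of 2000 to 8000 UMI. Granulosa-like cells had 2 higher and 1 lower at a 20% mitochondrial limit, and 1 and 1 with the 9 genes kept in clustering. Stromal-like cells had 5 higher and 2 lower with the unnamed ACTA2-led cluster joined. They had 5 and 0 without theca-like cells and in cells of 2000 to 8000 UMI, 2 lower at resolution 1.6, and 1 to 3 higher leaving out 1 ewe. Immune-like cells had 8 lower in cells of 2000 to 8000 UMI. In that window cumulus cells had 0 higher and 8 lower and mural cells 1 and 1, and leaving out 1 ewe gave 2 to 5 lower in cumulus cells. All these counts stand without the share of all genes called under the same setting.

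Signs changed as follows (log2). In the window, FOSB was −0.19, JUNB −0.11 and JUND −0.29 in endothelial-like cells, FOS −0.28 and JUN −0.94 in cumulus cells, and ATF3 0.0061 and BTG2 0.084 in mural cells. In granulosa-like cells FOS was 0.078 and 0.053 and JUN 0.084 and 0.073 at the 20% limit and with the 9 genes kept, and FOSB was −0.081 and −0.072 in stromal-like cells. EGR1 in granulosa-like cells was −0.012 at resolution 1.6 and −0.020 with the cluster joined and −0.030 without theca-like cells, and FOSB in immune-like cells was 0.035 in DESeq2. Leaving out 1 ewe gave, in granulosa-like cells, EGR1 −0.12 to 0.15 and BTG2 −0.12 to 0.15, in stromal-like cells FOSB −0.096 to 0.095, and in immune-like cells FOSB −0.11 to 0.092, ATF3 −0.20 to 0.018 and BTG2 −0.21 to 0.037. It gave JUNB −0.16 to 0.13 in cumulus cells and IER2 −0.040 to 0.18 in mural cells. Between HLS and LLS in early granulosa-like cells it gave FOS −0.50 to 0.24 and BTG2 −0.025 to 0.45. Shares of cells with at least 5 of the 9 genes were 87.1%, 64.6%, 78.0%, 94.2% and 70.2% thinned to 2000 UMI, and 97.8%, 82.7%, 94.9%, 98% and 84.1% unthinned, in endothelial-like, granulosa-like, stromal-like, perivascular-like and immune-like cells. The sum over 20% mitochondrial UMI was 77.4 per 10000 of all UMI. Beyond what each setting changes by construction, the cause was not tested. With 3 ewes a group, differences of the size of the SEs could not be seen.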
